A study of Mus musculus with 12 samples.

Results

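Tgm2, Asb2, Nrip1, Plac8, Cttn and Podnl1 are 6 genes of activated mouse CD4 T cells, chosen by their higher level with retinoic acid (RA) than without it. They are 6 of the 52635 genes in the deposited table and were matched there by gene name. They were picked for a rise with RA, and described by its size in each genotype, so the rise itself is given as a description and without a test. The 12 RNA-seq libraries came from naive CD4 T cells of the inbred mouse strain C57BL/6, after 24 h of activation through CD3 and CD28 with IL-6, IL-1β, IL-21, IL-23, TNFα and TGF-β1, and antibodies to IFNγ and IL-4, in medium with charcoal-stripped serum. The 6 groups hold 2 libraries each: RARα KO with 10 nM RA, RARα KO without RA, RARα TG with 10 nM RA, RARα TG without RA, WT with 10 nM RA and WT without RA. The labels give neither the KO allele, nor the TG construct and the promoter that drives it, nor the age of the mice. They do not say that the 2 replicates of a group are different mice. In TG the 2 replicates differed in sex by Xist and Y-linked transcripts at both doses, so they were not from the same mouse. For KO and WT this is open. Each p-value thus reflects the spread between these libraries, which outside TG may be technical.

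RA, the active derivative of vitamin A, enters cells and binds retinoic acid receptors (RARα, RARβ and RARγ), which sit on DNA as pairs with a retinoid X receptor. Without ligand the pair can hold corepressors and keep a gene low, and with ligand it releases them and recruits coactivators. The pair is known to recognise direct repeats of a short half-site. In T cells RA is best known for the gut-homing receptors it induces and for its effects on the balance between Th17 and regulatory T cells. The 6 genes have unlike products: an enzyme (Tgm2), a ubiquitin ligase subunit (Asb2), a nuclear receptor corepressor (Nrip1), a small cysteine-rich protein (Plac8), an actin-binding protein (Cttn) and a leucine-rich repeat protein (Podnl1).

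Promoter sequence is shown because the 6 genes were higher with RA together. RefSeq windows on GRCm38.p6 matched 3 of the 6 genes, Asb2, Nrip1 and Plac8, and no window was matched for Tgm2, Cttn and Podnl1. For each, the 250 bases before the most upstream RefSeq start were searched and are printed 5′ to 3′ on the gene's own strand, which is the minus strand for all 3. GENCODE starts Plac8 further upstream, so the 40 bases nearest the RefSeq start, which lie inside its GENCODE gene, were left out and 210 are printed. Capitals mark the half-sites AGGTCA and GGGTCA, as well as the variants AGTTCA and GGTTCA, searched on both strands.
Asb2, chr12:103356002-103356251: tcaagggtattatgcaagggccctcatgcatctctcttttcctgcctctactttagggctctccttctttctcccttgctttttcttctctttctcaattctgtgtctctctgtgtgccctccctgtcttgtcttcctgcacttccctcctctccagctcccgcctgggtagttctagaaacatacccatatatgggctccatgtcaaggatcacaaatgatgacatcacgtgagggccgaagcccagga
Nrip1, chr16:76373828-76374077: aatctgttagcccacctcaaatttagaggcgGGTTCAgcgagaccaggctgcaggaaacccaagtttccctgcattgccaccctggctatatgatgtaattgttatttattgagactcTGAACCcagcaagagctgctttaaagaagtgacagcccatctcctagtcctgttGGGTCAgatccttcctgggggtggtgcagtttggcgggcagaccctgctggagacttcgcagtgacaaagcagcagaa
Plac8, chr5:100572246-100572455: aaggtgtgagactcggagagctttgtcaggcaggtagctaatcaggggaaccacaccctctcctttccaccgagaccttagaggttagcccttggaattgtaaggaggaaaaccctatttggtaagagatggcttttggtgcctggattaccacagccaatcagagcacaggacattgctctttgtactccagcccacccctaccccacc
The Nrip1 stretch holds 3 half-sites, 2 of them GGTTCA, once on the gene strand and once on the opposite strand, and 1 GGGTCA on the gene strand whose nearest base lies 73 bases before the start. The 250 bases of Asb2 and Plac8 hold 0. Each of the 3 genes has a second RefSeq window at an inner start. That of Plac8 holds 1 GGTTCA, whose nearest base lies 156 bases before that start, and those of Asb2 and Nrip1 hold 0. Among the first 250 bases of all 32851 windows in the table, 38.6% hold at least 1 of these half-sites. Direct repeats of the half-sites with a spacer of 1, 2 or 5 bases (DR1, DR2 and DR5) were in none of these windows, and in 0.164%, 0.174% and 0.0883% of all windows over the same 250 bases. A match is a run of letters and not a measured site, and no match says only that these letters are absent from this stretch.

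The depth read from the steps of low values lay between 16289130 and 25532316 reads a library. Rara, the gene in the genotype labels, stood at 16.8 and 17.6 FPKM (fragments scaled by exon length and library depth) in KO-labelled libraries with RA and at 19.5 and 19.3 FPKM in those without RA. It stood at 126 and 119 FPKM in TG with RA, 72.8 and 63.3 FPKM in TG without RA, 12.3 and 14.2 FPKM in WT with RA and 16.5 and 18.9 FPKM in WT without RA. The gene-level value was thus not lower under the KO label, and a value over the whole gene cannot show a deletion of part of it. By Xist and Y-linked transcripts all 4 KO-labelled libraries were female and all 4 WT libraries male, while TG replicate 1 was male and replicate 2 female at both doses. All 7 CD4 T-cell markers examined were above 1 FPKM, with a summed level of 758 to 1215 FPKM. With RA in TG, 4 of the 7 were called higher (Cd4, Cd3e, Cd3d and Trac) and 2 lower (Cd5 and Cd28). Cd3e rose there by 0.80 (limma adjusted p = 4.02e-05) and Cd5 fell by 1.15 (0.000283). In WT Cd3e was called higher with RA, and in KO 0 were called. Of 7 macrophage and monocyte markers, Cd14, Csf1r, Adgre1, Mertk and Fcgr1 were under 1 FPKM in all 12 libraries, and the summed level was 4.64 and 16.9 FPKM in KO with RA, 4.79 and 17.8 in KO without RA, 3.999 and 5.98 in TG with RA, 3.68 and 6.05 in TG cultures without RA, 3.97 and 19.8 in WT with RA and 3.89 and 15.8 in WT without RA. The 7 B-cell markers summed to 35.7 and 62.8 FPKM in KO with RA, 29.8 and 49.7 in KO without RA, 108 and 105 in TG with RA, 30.5 and 32.7 in TG cultures without RA, 54.9 and 120.2 in WT with RA and 28.5 and 94.3 in WT without RA, and 1 of the 6 tested, Ighm, was called higher with RA in TG. The 7 dendritic and class II markers summed to 25.5 and 78.2 FPKM in KO with RA, 26.4 and 73.2 in KO without RA, 32.1 and 42.9 in TG with RA, 27.4 and 43.7 in TG cultures without RA, 25.98 and 164.7 in WT with RA and 23.7 and 156.9 in WT without RA, and 1 of the 5 tested, Itgax, was called higher with RA in TG. For the macrophage and the dendritic lists replicate 2 was thus the higher in every group, and for the dendritic list it was furthest above replicate 1 in WT. Of 9 epithelial, endothelial and stromal markers 7 were under 1 FPKM in all libraries, among them Krt8 at 0. Epcam was called higher with RA in TG and WT. Pecam1 stood at 3.39 to 8.47 FPKM and was not called with RA in any genotype. The CD8 markers summed to at most 4.18 FPKM and the 4 neutrophil markers to at most 1.93 FPKM, and in TG the neutrophil marker Ly6g and the macrophage marker Cd68 were called lower with RA. The part of these markers in the results was not tested. In bulk RNA, fewer cells of a type and less RNA per cell cannot be told apart.

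Tgm2 encodes transglutaminase 2, an enzyme that crosslinks glutamine to lysine side chains and also binds GTP, and it is a long-known RA-induced gene of macrophages. It lies on chromosome 2 (158116402 to 158146436, minus strand, ENSMUSG00000037820). Tgm2 stood at 20.51 and 28.3 FPKM in KO with RA, against 12.4 and 13.04 FPKM in KO without RA. In TG it stood at 49.9 and 47.4 FPKM with RA, against 3.23 and 3.46 FPKM without RA. In WT it stood at 43.2 and 56.1 FPKM with RA, against 8.75 and 10.0 FPKM without RA. Both libraries with RA were above both without RA in each genotype. The highest level was shared by TG and WT with RA, which overlapped, and all other groups were apart, in the order KO with RA, KO, WT and TG without RA. In TG the level without RA was thus the lowest of the 6 groups. Tgm2 overlaps Rprd1b on the opposite strand over 370 of its 4608 exon bases, and Rprd1b stood between 17.95 and 22.45 FPKM in all 12 libraries. It also overlaps Gm20412 on the opposite strand over 633 exon bases, and Gm20412 reached at most 0.376 FPKM. No label gives the strand setting of the counting, so the share of opposite-strand reads is unknown.

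Asb2 encodes the substrate-binding subunit of a cullin-5 ubiquitin ligase that marks filamins for degradation, and it was found as an RA-induced gene of promyelocytic leukaemia cells. It lies on chromosome 12 (103321142 to 103356001, minus strand, ENSMUSG00000021200), and its printed stretch above held no half-site. Asb2 was the lowest of the 6 genes without RA. It stood at 1.56 and 2.43 FPKM in KO with RA, against 0.718 and 0.549 FPKM in KO without RA. In TG it stood at 6.82 and 7.88 FPKM with RA, against 0.0429 and 0.0332 FPKM without RA. In WT it stood at 1.40 and 1.96 FPKM with RA, against 0.113 and 0.159 FPKM without RA. All RA libraries were above all libraries without RA, and KO without RA was above WT and TG without RA. TG with RA stood alone at the top, KO and WT with RA overlapped, and the 3 groups without RA were apart from each other. The TG level without RA rests on 3 reads in each library, against 1115 reads in both TG libraries with RA. The ratio of the depth-scaled reads was 199 (95% exact interval 91.3 to 544, counting error only). Asb2 reached the minimum for testing only through its libraries with RA.

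Nrip1 encodes RIP140, a corepressor that binds ligand-bound nuclear receptors, retinoid receptors among them. It lies on chromosome 16 (76287400 to 76373827, minus strand, ENSMUSG00000048490). Nrip1 stood at 14.7 and 19.9 FPKM in KO with RA, against 4.26 and 4.23 FPKM in KO without RA. In TG it stood at 45.5 and 48.8 FPKM with RA, against 2.87 and 2.41 FPKM without RA. In WT it stood at 35.0 and 32.1 FPKM with RA, against 3.90 and 3.76 FPKM without RA. No 2 groups overlapped: the order was TG, WT and KO with RA, then KO, WT and TG without RA. The genotype order without RA was thus the reverse of that with RA. With 1353 to 22961 reads per pair of libraries, Nrip1 had the most reads of the 6 genes in each genotype with RA.

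Plac8 encodes a small cysteine-rich protein of myeloid and lymphoid cells. It lies on chromosome 5 (100553725 to 100572245, minus strand, ENSMUSG00000029322). Plac8 stood at 11.1 and 14.6 FPKM in KO with RA, against 3.30 and 3.36 FPKM in KO without RA. In TG it stood at 34.8 and 24.8 FPKM with RA, against 3.85 and 2.76 FPKM without RA. In WT it stood at 23.1 and 17.8 FPKM with RA, against 2.09 and 3.55 FPKM without RA. With RA the groups were apart in the order TG, WT and KO, and without RA all 3 overlapped. Its replicates differed more than those of the other 5 genes on the log2 scale, with an SE of a rise of 0.24 against 0.10 to 0.16.

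Cttn encodes cortactin, which binds the Arp2/3 complex and stabilises branched actin, and whose relative Hcls1 is the main form in blood cells. It lies on chromosome 7 (144435733 to 144471009, minus strand, ENSMUSG00000031078). Cttn stood at 3.46 and 4.03 FPKM in KO with RA, against 1.64 and 1.42 FPKM in KO without RA. In TG it stood at 31.95 and 27.0 FPKM with RA, against 0.532 and 0.598 FPKM without RA. In WT it stood at 4.18 and 4.95 FPKM with RA, against 0.581 and 0.633 FPKM without RA. TG with RA lay far above every other group, and WT and KO with RA were apart with WT the higher. Without RA, KO lay above WT and TG, which overlapped.

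Podnl1 encodes a podocan-like protein of the small leucine-rich repeat family, whose members are mostly found in extracellular matrix. It lies on chromosome 8 (84125989 to 84132527, plus strand, ENSMUSG00000012889). Podnl1 stood at 2.37 and 2.80 FPKM in KO with RA, against 1.07 and 1.11 FPKM in KO without RA. In TG it stood at 9.01 and 9.22 FPKM with RA, against 0.457 and 0.375 FPKM without RA. In WT it stood at 2.27 and 2.54 FPKM with RA, against 0.699 and 0.525 FPKM without RA. TG with RA was again alone at the top, KO and WT with RA overlapped, and without RA the groups were apart in the order KO, WT and TG. Without RA, Cttn and Podnl1 reached 1 FPKM in the KO-labelled libraries only.

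**Figure D1:**
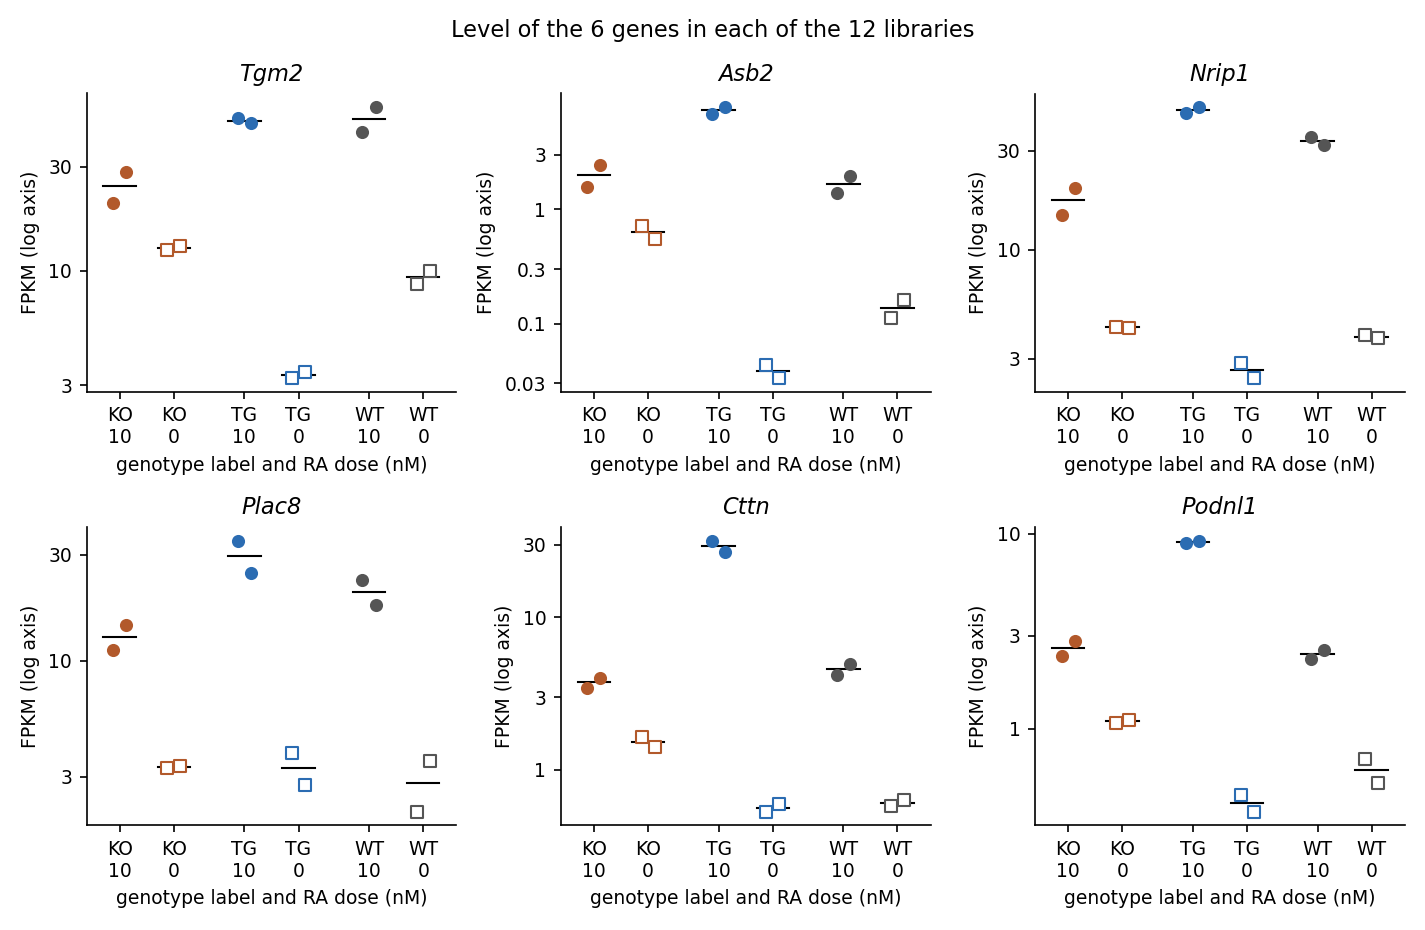
FPKM on a log axis for each of the 6 genes, with 1 point per library, filled circles with 10 nM RA and open squares without RA, and a line at the mean of 2 libraries. In every panel both points with RA lie above both points without RA of the same genotype, and for Asb2, Cttn and Podnl1 the TG points with RA stand far above the other groups.

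In all 6 genes and all 3 genotypes both libraries with RA were above both without RA. The rule had chosen the genes for this, so nothing is read from it. Of the 11922 genes tested, 24.1% were so ordered in KO, 33.5% in TG and 31% in WT. For each of the 6 genes the smallest rise among the genotypes was in KO and the largest in TG. On the log2(FPKM + 1) scale, on which changes of low genes come out smaller than they are, the rise in KO was 0.87 ± 0.15 for Tgm2, 0.86 ± 0.16 for Asb2, 1.79 ± 0.12 for Nrip1, 1.67 ± 0.24 for Plac8, 0.91 ± 0.11 for Cttn and 0.78 ± 0.10 for Podnl1 (± SE, n = 2 against 2). In TG it was 3.51 ± 0.15 for Tgm2, 3.005 ± 0.16 for Asb2, 3.73 ± 0.12 for Nrip1, 2.83 ± 0.24 for Plac8, 4.28 ± 0.11 for Cttn and 2.84 ± 0.10 for Podnl1. In WT it was 2.28 ± 0.15 for Tgm2, 1.23 ± 0.16 for Asb2, 2.84 ± 0.12 for Nrip1, 2.51 ± 0.24 for Plac8, 1.79 ± 0.11 for Cttn and 1.08 ± 0.10 for Podnl1. The median over the 6 genes was 0.89 in KO, 3.26 in TG and 2.03 in WT, beside medians over all tested genes of 0.0098, -0.021 and 0.020. The KO median was 1.08 without KO 10 nM replicate 1.

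**Figure D2:**
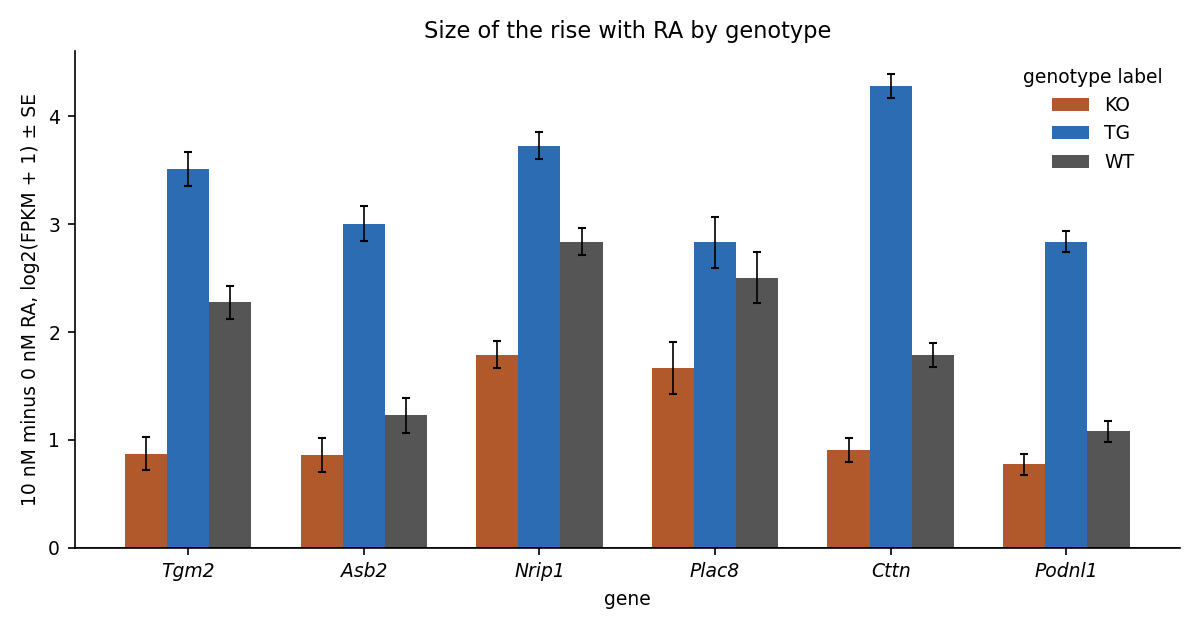
Log2(FPKM + 1) difference, 10 nM minus 0 nM RA, for each gene in KO, TG and WT (bars, ± SE of the fit, 2 libraries against 2). For each gene the TG bar is the tallest and the KO bar the shortest, from 0.78 for Podnl1 in KO to 4.28 for Cttn in TG.

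The genes differed in how the rise compared between genotypes. In KO the log2 rise minus that in WT was -1.41 ± 0.22 for Tgm2, -1.05 ± 0.17 for Nrip1, -0.88 ± 0.15 for Cttn, -0.84 ± 0.34 for Plac8, -0.37 ± 0.23 for Asb2 and -0.31 ± 0.14 for Podnl1. In TG the rise minus that in WT was 2.49 ± 0.15 for Cttn, 1.78 ± 0.23 for Asb2, 1.76 ± 0.14 for Podnl1, 1.24 ± 0.22 for Tgm2, 0.89 ± 0.17 for Nrip1 and 0.33 ± 0.34 for Plac8. These are descriptions, since the genes were picked with the size of the rise in view. The order of the genes changed with the scale. With a pseudocount of 0.1 the KO minus WT difference was -1.41 for Asb2, -1.48 for Cttn, -1.47 for Tgm2 and -0.66 for Podnl1, and with voom on recovered reads it was -1.95 for Asb2, the largest of the 6, and -0.72 for Podnl1. The TG minus WT difference of Asb2 was 2.85 and 3.84 on these scales, above the 2.76 and 2.78 of Cttn. In FPKM, the gain of Tgm2 with RA in KO was 29.0% of its gain in WT, that of Nrip1 44.0%, of Plac8 54.1%, of Cttn 56.1%, of Podnl1 83.2% and of Asb2 88.4%. The gain in TG was 112.5% of the WT gain for Tgm2, 149.7% for Nrip1 and 150.6% for Plac8, but 474% for Asb2, 484% for Podnl1 and 731% for Cttn. As a ratio of mean FPKM, with RA over without, Asb2 reached 3.15 in KO and 12.3 in WT, since its KO level without RA was the higher. The ratio for Tgm2 was 1.92 in KO, 14.5 in TG and 5.29 in WT. The ratio for Cttn was 2.45 in KO, 52.2 in TG and 7.51 in WT.

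The level of the 6 genes at each dose was then compared between genotypes with limma. The libraries compared are those whose RA rises served to pick the genes, so these tests are not independent of the choice, and nothing is read from how many of the 6 were called. Each adjusted p counts all 11922 genes tested. KO and TG are both set against the same WT libraries. With 10 nM RA, KO-labelled cells had lower Nrip1 and Tgm2 than WT cells. Nrip1 averaged 17.3 ± 3.70 FPKM in KO and 33.6 ± 2.10 FPKM in WT (SD, n = 2 each), a difference of -0.93 ± 0.12 (log2 ± SE, limma adjusted p = 0.0109). Tgm2 averaged 24.4 ± 5.51 FPKM in KO and 49.6 ± 9.16 FPKM in WT, a difference of -0.9999 ± 0.155 (limma adjusted p = 0.0239). Thus 2 of 6 genes were called lower and 0 higher, beside 0.411% and 0.47% of all tested genes. In 4 of the 6, Cttn and Plac8 with them, both KO libraries lay below both WT libraries, as in 17.7% of all tested genes. Plac8 differed by -0.63 ± 0.24 (limma adjusted p = 0.364) and Cttn by -0.23 ± 0.11 (limma adjusted p = 0.502), and neither passed. Asb2 (0.15 ± 0.16) and Podnl1 (0.07 ± 0.10) overlapped. The Nrip1 call ended without WT 10 nM replicate 1 (adjusted p = 0.0664) or replicate 2 (0.0568), and the Tgm2 call without WT 10 nM replicate 2 (0.143) or KO 10 nM replicate 1 (0.115), within limma adjusted p of 0.00275 to 0.334 and 0.00842 to 0.403 over 11 alternatives. KO and WT differ in sex as well as in label, so genotype and sex cannot be told apart, and with a sex term, which rests on the TG libraries alone, neither was called (Tgm2 -1.001, adjusted p = 0.269, and Nrip1 -0.89, adjusted p = 0.191, by limma). The 2 WT libraries also differ from each other in the dendritic and macrophage markers given above.

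Without RA the KO-labelled libraries stood above WT in 5 of the 6 genes, where 27.6% of all tested genes had both KO libraries above both WT libraries. Cttn was the 1 gene called higher, beside 1.16% of all tested genes, and 0 were called lower, beside 0.579%. Cttn averaged 1.53 ± 0.159 FPKM in KO and 0.607 ± 0.0365 FPKM in WT (SD, n = 2 each), a difference of 0.65 ± 0.11 (limma adjusted p = 0.0269). Asb2 averaged 0.633 ± 0.120 FPKM in KO and 0.136 ± 0.0331 FPKM in WT, a ratio of 4.66, and differed by 0.52 ± 0.16 (limma adjusted p = 0.165). Its difference depended on how low values were scaled: it was 1.63 with a pseudocount of 0.1 (limma adjusted p = 0.0326), where it was called, and 2.19 with voom on recovered reads (0.087), within adjusted p of 0.0326 to 0.525 over 11 alternatives. Tgm2 differed by 0.41 ± 0.15 (limma adjusted p = 0.261), Podnl1 by 0.38 ± 0.10 (0.109) and Nrip1 by 0.12 ± 0.12 (0.715), none past the threshold. Plac8 overlapped between the groups (0.21 ± 0.24). The Cttn call ended without any 1 of the 4 libraries (limma adjusted p of 0.0863 to 0.188), within 0.00754 to 0.188 over 11 alternatives, and here too genotype and sex cannot be told apart.

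In TG with RA, Cttn, Podnl1 and Asb2 were several-fold above WT, while Tgm2 was not. Cttn averaged 29.5 ± 3.48 FPKM in TG and 4.56 ± 0.548 FPKM in WT (SD, n = 2 each), a difference of 2.45 ± 0.11 (limma adjusted p = 6.73e-06). Podnl1 averaged 9.12 ± 0.153 FPKM in TG and 2.41 ± 0.189 FPKM in WT, a difference of 1.57 ± 0.10 (limma adjusted p = 3.6e-05). Asb2 averaged 7.35 ± 0.744 FPKM in TG and 1.68 ± 0.397 FPKM in WT, a difference of 1.65 ± 0.16 (limma adjusted p = 0.000411). These 3 calls held in each of 11 alternatives. Nrip1 was also called higher, at 0.48 ± 0.12 (limma adjusted p = 0.0405), but in 3 of 11 alternatives only (0.0232 to 0.196), and the call ended without any 1 of the 4 libraries. Plac8 differed by 0.52 ± 0.24 (limma adjusted p = 0.212), with both TG libraries above both WT libraries. Tgm2 differed by -0.02 ± 0.15 (limma adjusted p = 0.958) and its libraries overlapped. In all, 4 of 6 genes were called higher and 0 lower, beside 6.84% and 4.64% of all tested genes, and in 5 of 6 both TG libraries lay above both WT libraries, as in 24.5% of all tested genes.

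Without RA, Tgm2 was lower in TG than in WT. It averaged 3.35 ± 0.160 FPKM in TG and 9.38 ± 0.890 FPKM in WT (SD, n = 2 each), a difference of -1.25 ± 0.15 (limma adjusted p = 0.00477), and this call held in each of 11 alternatives. It was the 1 gene of 6 called lower, beside 2.06% of all tested genes, and 0 were called higher, beside 2.25%. In Asb2, Nrip1 and Podnl1 too, both TG libraries lay below both WT libraries, as in 22% of all tested genes. Nrip1 differed by -0.41 ± 0.12 (limma adjusted p = 0.111), Podnl1 by -0.19 ± 0.10 (0.351) and Asb2 by -0.13 ± 0.16 (0.734), none past the threshold. Cttn (-0.04 ± 0.11) and Plac8 (0.19 ± 0.24) overlapped. For Tgm2 the larger log2 rise in TG than in WT came with overlapping levels with RA and a lower TG level without RA.

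**Figure D3:**
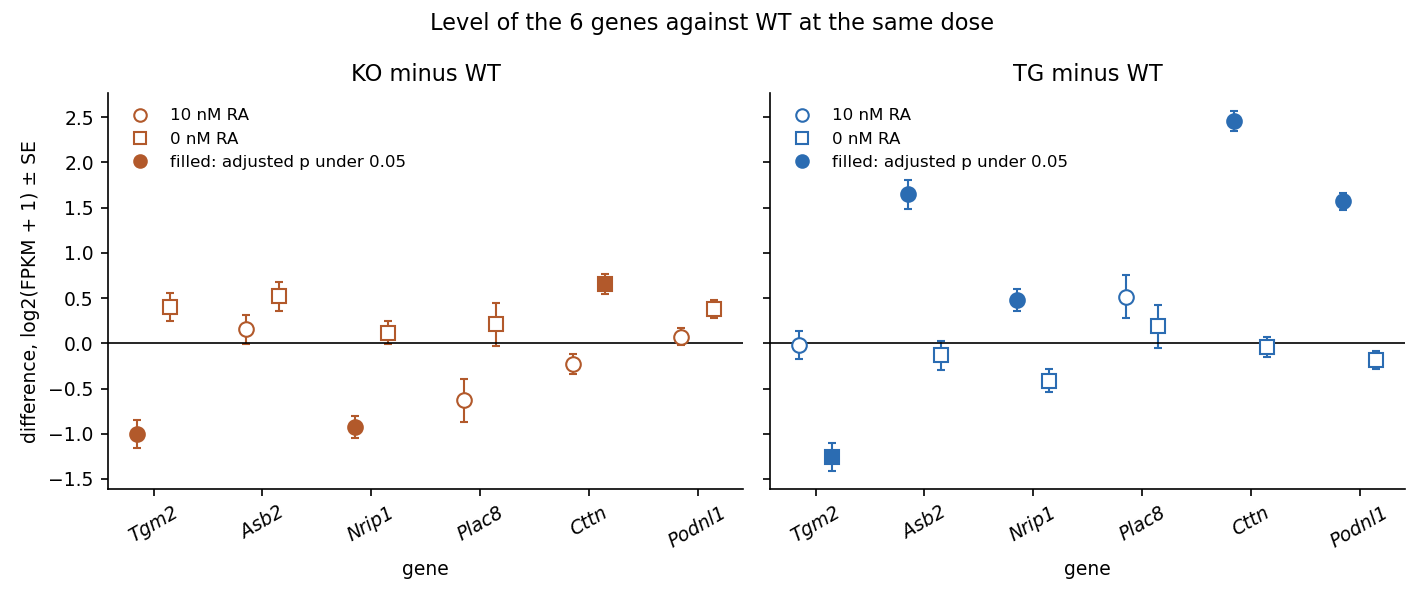
Difference from WT at the same dose on the log2(FPKM + 1) scale (± SE, 2 libraries against 2), KO minus WT in the left panel and TG minus WT in the right, circles with 10 nM RA and squares without RA, filled where the limma adjusted p was under 0.05. Nrip1 and Tgm2 in KO with RA lie near -1, Tgm2 in TG without RA at -1.25, and Cttn, Asb2 and Podnl1 in TG with RA between 1.57 and 2.45.

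Over the 12 libraries the 6 genes were unequally alike. Asb2, Cttn and Podnl1 had pairwise Pearson correlations of 0.987 to 0.995 on the log2(FPKM + 1) scale, with TG and RA far above the rest. Nrip1 and Plac8 correlated at 0.980, Tgm2 and Nrip1 at 0.947 and Tgm2 and Plac8 at 0.892. Pairs across these 2 sets reached 0.913 (Nrip1 and Podnl1), so Tgm2 and Plac8 were no more alike than such a pair. The lowest value was 0.827, between Tgm2 and Cttn. Libraries with and without RA enter each value together, and all 6 genes were chosen as higher with RA, so these values are a description of likeness and carry no test. The genes most like each were then ranked among tested genes with a mean of at least 2 FPKM in a group. The 6 genes themselves, genes with Gm or Rik names and variable and joining segments of antigen receptors were left out. The 3 most like Tgm2 were AC153379.1 (0.985), Gzf1 (0.974) and Ctsc (0.974). Ctsc, which encodes the lysosomal protease cathepsin C, averaged 65.1 FPKM in KO with RA, 44.7 in KO without RA, 93.2 in TG with RA, 28.7 in TG without RA, 78.6 in WT with RA and 38.4 in WT without RA. Those most like Asb2 were Acsbg1 (0.986), Hsd11b1 (0.985) and Elk1 (0.985), and those most like Podnl1 were Elk1 (0.990), Hsd11b1 (0.989) and Phldb3 (0.989). Cttn was most like Fchsd2 (0.992), Tspan3 (0.990) and Sit1 (0.988). Nrip1 was most like Hic1 (0.992), Smg6 (0.988) and Itga4 (0.982), and Plac8 most like Hic1 (0.980), Tcn2 (0.978) and Apeh (0.975).

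The relatives of the 6 genes, their partners and other RA-induced genes were tested for a change with RA, which had not chosen them by the same rule, although these lists were drawn up with earlier results known. Of all tested genes, 0.134% were called higher with RA in KO and 0.00839% lower, 19.7% higher and 19.4% lower in TG, and 6.67% higher and 3.47% lower in WT. Of the 60 listed genes tested, 2 were called in KO, 30 in TG and 17 in WT, and without any 1 of its 4 libraries 7 to 10 were called in WT. Close relatives of Tgm2, Plac8 and Podnl1 were hardly present. The 9 other transglutaminase genes reached at most 0.432 FPKM (Tgm1) and the 16 relatives of Podnl1 at most 1.10 FPKM (Lum). The 5 genes listed with Plac8, some of which share only the Plac name, reached at most 0.0820 FPKM (Cnfn). Thus 0 of these genes were tested.

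Of 17 relatives of Asb2, 6 were tested, and 0 were called in KO or WT. In TG, Asb7 rose by 0.37 ± 0.08 (limma adjusted p = 0.00495) and Asb6 fell by 0.28 ± 0.07 (limma adjusted p = 0.0145). Asb8, Asb3, Asb13 and Asb1 were not called. The list's median change in TG was 0.0041. Of 13 ligase partners and targets of Asb2, 12 were tested. In KO 0 were called, in TG 3 rose and 2 fell, and in WT 2 rose and 0 fell. The medians were -0.00072 in KO, -0.096 in TG and -0.0015 in WT. Ube2f, the NEDD8-conjugating enzyme that serves cullin-5, stood at 11.9 and 11.2 FPKM in TG with RA, against 4.73 and 4.82 FPKM in TG without RA, and rose by 1.12 ± 0.08 in TG (limma adjusted p = 1.18e-05) and 0.36 ± 0.08 in WT (0.0212). Arih2, a ligase that works with neddylated cullin-5, rose by 0.27 ± 0.05 in TG (limma adjusted p = 0.00276) and 0.28 ± 0.05 in WT (0.0112). Jak2, a kinase, rose by 0.45 ± 0.07 in TG (limma adjusted p = 0.001), and Nedd8, the modifier itself, fell by 0.25 ± 0.06 (0.00894). Cul5 and the filamin gene Flna were not called in any genotype.

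Of 18 relatives and partners of Nrip1 in receptor signalling, 11 were tested. In KO 0 were called, in TG 0 rose and 2 fell, and in WT 1 rose and 2 fell, with medians of -0.013, -0.031 and 0.051. Rxra, the retinoid X receptor α gene, stood at 3.62 and 3.41 FPKM in TG with RA, against 9.36 and 12.3 FPKM in TG without RA. It fell by 1.38 ± 0.13 in TG (limma adjusted p = 6.97e-05) and 0.75 ± 0.13 in WT (0.00962), and in KO its change was -0.43 ± 0.13 (0.283). Hdac6, a deacetylase, fell by 0.52 ± 0.08 in TG (limma adjusted p = 0.000877). In WT Rarg, the gene of RARγ, fell by 0.59 ± 0.15 (limma adjusted p = 0.0425) and Rxrb rose by 0.24 ± 0.06 (0.0417). The corepressor genes Ncor1 and Ctbp1 and the deacetylase genes Hdac1, Hdac2 and Hdac3 were not called.

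Of 21 relatives of Cttn and genes of actin branching, 20 were tested. In KO 0 were called, in TG 7 rose and 3 fell, and in WT 4 rose and 2 fell, with medians of 0.059, 0.047 and 0.082. Wipf1, which encodes a partner of the Wiskott-Aldrich protein, stood at 43.7 and 42.9 FPKM in TG with RA, against 17.1 and 15.6 FPKM in TG without RA. It rose by 1.35 ± 0.05 in TG (limma adjusted p = 5.96e-07) and 0.50 ± 0.05 in WT (0.00104). Was, the Wiskott-Aldrich gene, rose by 0.32 ± 0.04 in TG (limma adjusted p = 0.000591) and 0.21 ± 0.04 in WT (0.0232), and Wasf2 rose by 0.45 ± 0.06 in TG (0.000388) and 0.25 ± 0.06 in WT (0.0268). The Arp2/3 subunit gene Arpc5 rose by 0.44 ± 0.05 in TG (limma adjusted p = 0.00022). Hcls1, the relative of Cttn, stood at 193 and 191 FPKM in TG with RA, against 117 and 123 FPKM in TG without RA, a rise of 0.67 ± 0.10 (limma adjusted p = 0.000966). Hcls1 thus stood several-fold above Cttn per length in every library, and its change was 0.07 ± 0.10 in KO (0.871) and 0.25 ± 0.10 in WT (0.162). The relative Dbnl was not called.

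Among 24 other genes known to be induced by RA, 11 were tested. In KO 2 rose, in TG 11 rose and in WT 6 rose, and 0 fell in any genotype, with medians of 0.37, 2.77 and 1.02. Itga4, the integrin α4 chain of gut homing, stood at 20.7 and 23.1 FPKM in KO with RA, against 4.10 and 3.09 FPKM in KO without RA. It rose by 2.33 ± 0.15 in KO (limma adjusted p = 0.000755), 4.66 ± 0.15 in TG (3.48e-07) and 4.04 ± 0.15 in WT (1.52e-05). Hic1, a transcriptional repressor gene, rose by 2.95 ± 0.25 in KO (limma adjusted p = 0.00348), 5.36 ± 0.25 in TG (1.39e-06) and 4.28 ± 0.25 in WT (0.000161). Crabp2, which encodes a carrier of RA to its receptors, stood at 196 and 143 FPKM in TG with RA, against 4.10 and 3.85 FPKM in TG without RA, and rose by 5.08 ± 0.24 in TG (limma adjusted p = 1.45e-06) and 2.76 ± 0.24 in WT (0.000653). In KO its change was 1.05 ± 0.24 (0.152). Ccr9, the gut-homing chemokine receptor gene, stood at 11.3 and 10.9 FPKM in TG with RA and at 0, as listed, in TG replicates 1 and 2 without RA.

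**Figure D4:**
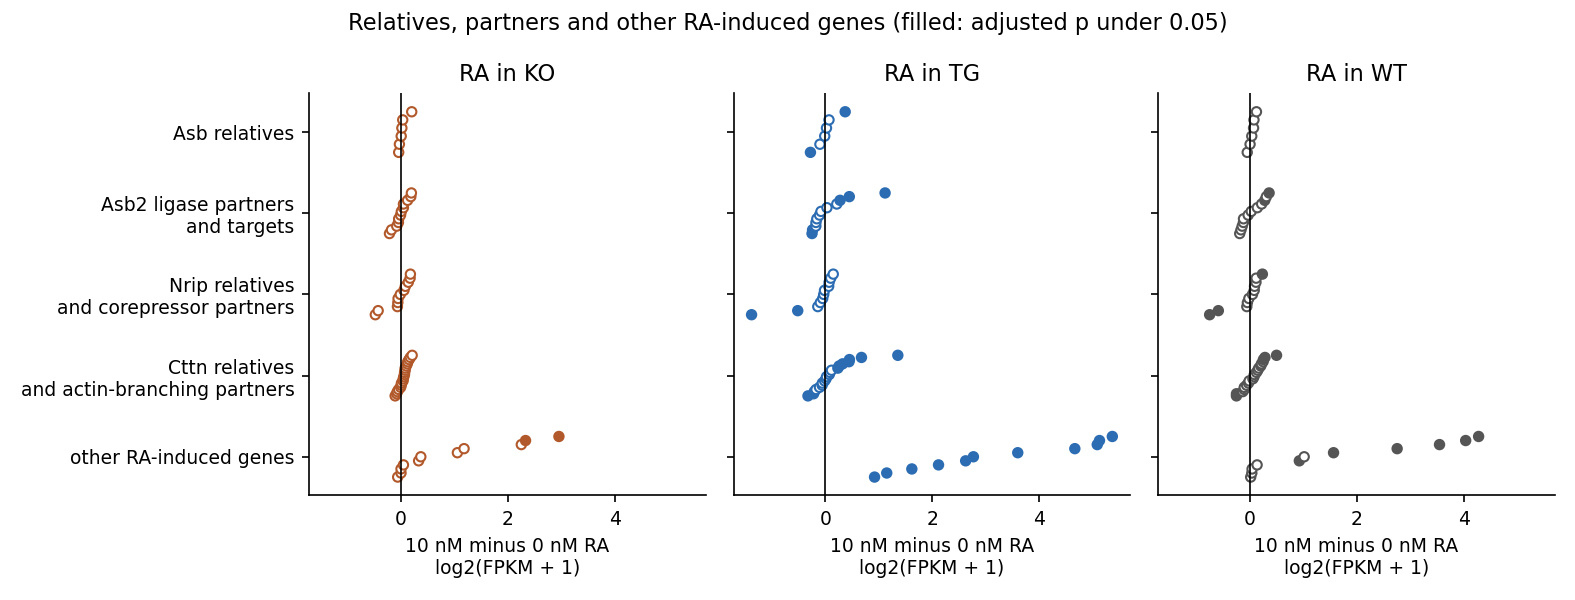
Change with RA (10 nM minus 0 nM, log2(FPKM + 1)) of each tested relative, partner and other RA-induced gene in KO, TG and WT, 1 point per gene, filled where the limma adjusted p was under 0.05. In TG all 11 of the other RA-induced genes are filled and to the right of 0, while the Asb, Nrip and Cttn lists spread on both sides of 0.

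The tested genes whose start lies within 200000 bases of the start of 1 of the 6 genes numbered 31. With RA 0 were called in KO, 7 rose and 4 fell in TG, and 0 rose and 1 fell in WT, where the shares of all tested genes are those given above. Beside Asb2, 3 of 5 neighbours rose in TG: Ifi27l2a by 0.77 (limma adjusted p = 0.0216), Ifi27 by 0.75 (0.0177) and Otub2, 32681 bases upstream, by 0.36 (0.0334). Beside Plac8, 2 of 5 fell in TG, 5430416N02Rik by 0.64 (limma adjusted p = 0.00701) and Lin54 by 0.48 (0.00323). Beside Podnl1, 2 of 15 rose and 2 fell in TG, Dcaf15 by 0.28 (limma adjusted p = 0.00537) and 4930432K21Rik by 0.32 (0.0184) upwards, Asf1b by 0.67 (0.00706) and Zswim4 by 0.40 (0.00151) downwards. Zswim4 also fell in WT, by 0.31 (limma adjusted p = 0.022). Lbp, 160057 bases upstream of Tgm2, rose by 0.56 in TG (limma adjusted p = 0.0224), and Ppfia1, 82720 bases upstream of Cttn, by 0.36 (0.000848). The 1 tested neighbour of Nrip1, Gm9843, was not called.

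**Figure D5:**
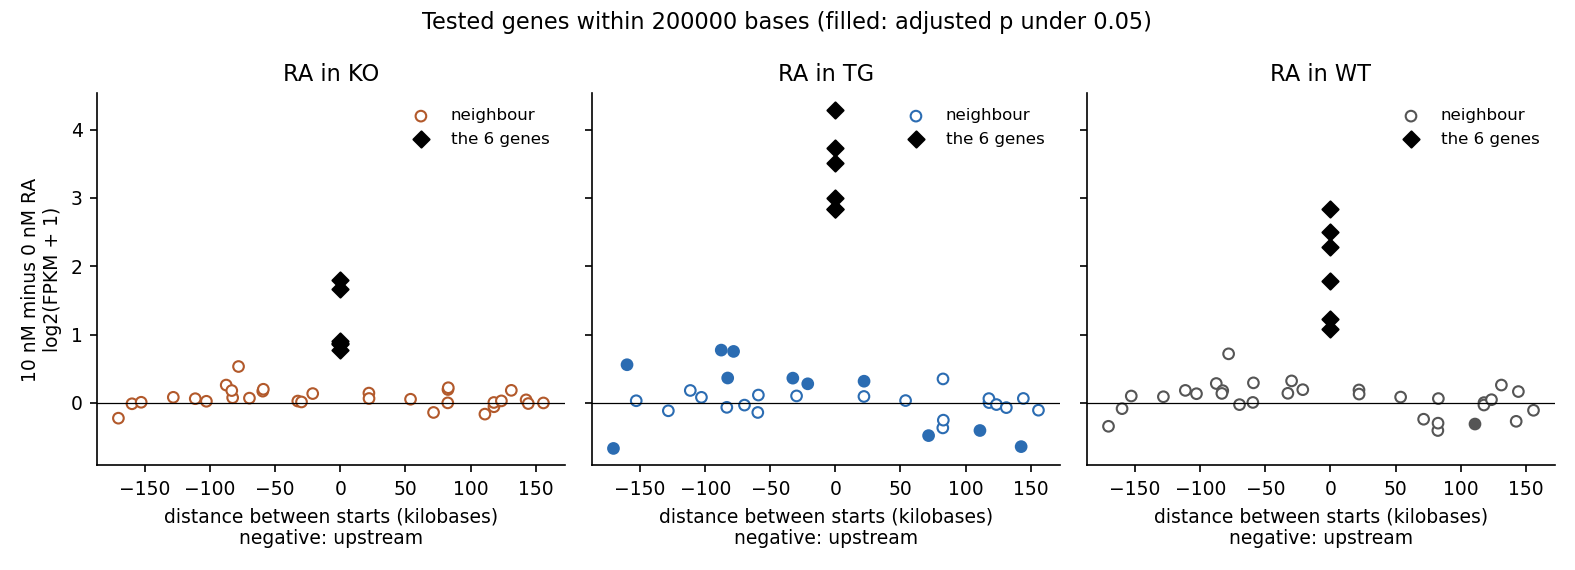
Change with RA (10 nM minus 0 nM, log2(FPKM + 1)) of the 31 tested neighbours against the distance between starts in kilobases, in KO, TG and WT, filled where the limma adjusted p was under 0.05, with the 6 genes as black diamonds at 0. The neighbours lie within 1 log2 unit of 0 in each panel, below the diamonds.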

How the data were processed

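The authors deposited 1 table of FPKM per gene for 12 libraries, made from single reads of 100 bp of stranded libraries, per the labels' protocols. The submitters' processing notes list STAR, DESeq2, HTSeq 0.6.1 and Trimmomatic 0.32 as tools and mm10 and GRCm38.p5 as builds, without giving each a step. Neither the annotation release nor the strand setting is given in the sources used here. GENCODE M21 on GRCm38 supplied positions and exon lengths. One read adds a fixed step to FPKM times exon length, which gave each library's depth, and 95.3 to 96.0% of values up to 20 reads lay within 0.02 of a whole number.

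All 11922 genes with at least 1 FPKM in at least 2 libraries, the 6 genes among them, were fitted on log2(FPKM + 1) in limma 3.58.1 (R 4.3.3) by lmFit, then contrasts.fit, then eBayes with a trend, with 1 mean for each of 6 groups of 2 libraries. P-values are two-sided, with Benjamini-Hochberg adjustment over all genes tested within each of 7 comparisons, and a gene under 0.05 is said to have been called. The 6 genes, the lists and the tests were chosen with earlier results of these data known. From each list the called genes were named, at most 4 with the smallest p in TG, with relatives of at least 2 FPKM. Some listed genes are not reported here by name. Of neighbours, the called genes within 200000 bases were named.

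The alternatives were upper-quartile scaling, a pseudocount of 0.1, testing without a filter, a fit of only the libraries compared, a replicate block, and the omission of 1 library at a time. A sex term and limma voom on recovered reads (11910 genes) were added after the data had been seen. The code was tested on simulated reads. Python 3.11.15 with pandas 2.3.3 and matplotlib 3.10.9 served for tables and figures.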

Additional observations from a re-analysis of the deposited data

How the results depend on the processing

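Over 19 alternatives 0 of 198 rises of the 6 genes fell below 0, which is no test, since the genes were picked for a rise. Of 264 differences between genotypes 24 lost their call, 1 gained it and 7 changed sign, of which 0 were called in either fit. Only differences already called could lose a call, so 264 is not the base for the 24. Against WT, the losses fell on Cttn in KO without RA (called in 4 of 11 alternatives), Tgm2 (6) and Nrip1 (7) in KO with RA, and Nrip1 in TG with RA (3). The other calls held in each of 11 alternatives. Leaving out 1 library, Plac8 without RA ranged over -0.070 to 0.488 in KO and -0.091 to 0.467 in TG against WT, below 0 without WT 0 nM replicate 1. With RA in KO, Asb2 ranged over -0.055 to 0.364 and Podnl1 over -0.014 to 0.159, below 0 without KO 10 nM replicate 2. Tgm2 in TG with RA ranged over -0.203 to 0.168, above 0 without WT 10 nM replicate 2 or TG 10 nM replicate 2 (0.019). Cttn in TG without RA was 0.0045 with the sex term. The median rise depended on how low values were scaled: with a pseudocount of 0.1 it was 1.37 in KO, 4.14 in TG and 2.78 in WT, and with voom on recovered reads 1.46, 4.32 and 2.92. Leaving out 1 library gave 0.76 to 1.08 in KO. Of the 6 genes, 2 were called between KO and WT without RA with a pseudocount of 0.1 (Asb2 the added gene), and 0 with no filter, with the sex term, with only the libraries compared, or without any 1 library. With RA the KO and WT call count was 1 with no filter, 0 with the sex term, 0 with only the libraries compared, and 0 to 2 when 1 library was left out. Of the listed genes, 2 were called with RA in KO, but 4 with a pseudocount of 0.1, 4 with the replicate block and 0 with only the libraries compared. In WT 17 were called, but 5 with only the libraries compared and 7 to 10 without 1 library. Over all tested genes the calls numbered 17 for RA in KO (30 with no filter, 73 with the replicate block, 0 with only the libraries compared, 6 to 16 without 1 library) and 1209 for RA in WT (142 with only the libraries compared, 342 to 850 without 1 library). They numbered 207 for KO against WT without RA (479 with the replicate block, 35 with the sex term, 26 with only the libraries compared, 31 to 80 without 1 library) and 105 with RA (174, 28, 14 and 44 to 94). For TG against WT they numbered 514 without RA (823, 200, 47 and 131 to 224) and 1369 with RA (422 with only the libraries compared, 626 to 1041 without 1 library). With only the libraries compared a fit has 2 residual degrees of freedom in place of 6. The causes were not tested otherwise.

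Same-numbered libraries deviated together between doses (correlation 0.32 in KO, 0.147 in TG and 0.327 in WT), but the labels do not pair them and there are 2 pairs a comparison. The replicate block, a shift of replicate 2 shared by all groups, left 1, 2, 1 and 4 of the 6 genes called in the 4 comparisons between genotypes, as without it. These comparisons lie within a dose, so the counts do not bear on pairing between doses. Upper-quartile scaling moved the median of all genes by under 0.1. Depth limits Asb2 most, with 3 reads in each TG library without RA.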
